A study of Mus musculus with 10 samples.

Results

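Dlx2 binding was examined at 7 genes of the inhibitory postsynapse: 6 subunits of the GABA-A receptor (Gabra2, Gabra3, Gabra5, Gabrb1, Gabrb2 and Gabrg3) and Gphn, which encodes the scaffold protein gephyrin. A region belonged to a gene when its summit, the position of highest enrichment, lay within the gene body extended by 50 kb on each side in the mouse genome build mm10. By this rule 9 of the 25667 regions in 5 lists belonged to the 7 genes: 6 in the basal ganglia at embryonic day 16 (E16), 3 in the cortex at postnatal day 3 (P3), and 0 in the cortex at E16 and in the olfactory bulb at either age.

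The lists come from chromatin immunoprecipitation and sequencing (ChIP-seq) of mouse brain tissue with an antibody against Dlx2, a homeodomain transcription factor of developing forebrain GABAergic neurons. There is 1 immunoprecipitated library for each of the 5 combinations of tissue and age, so no spread between replicates can be given and no test between groups was possible. The basal ganglia, cortex and olfactory bulb are given as tissues, with no sorting of cells in the labels, all fixed in 1.5% formaldehyde, sheared to 300 to 1000 bp and precipitated with 5 µg of antibody. The labels name no strain, genotype, sex or number of animals, and whether tissue was pooled is not given in the sources used here. Binding in a tissue does not tell which cells carry it, fewer bound cells and weaker binding per cell cannot be told apart, and no RNA was measured that would check the tissue by its markers.

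GABA-A receptors are pentameric chloride channels opened by the transmitter GABA, and most are built from alpha, beta and gamma subunits. The alpha subunit shapes the sensitivity to GABA and benzodiazepines, the beta subunit contributes to the GABA binding site and to assembly, and the gamma subunit helps place the receptor at synapses. Gephyrin forms a lattice under the inhibitory postsynaptic membrane that anchors GABA-A and glycine receptors. Most subunit genes lie in clusters that hold alpha, beta and gamma genes next to each other.

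The members are long genes. Gabra2 was the shortest at 137 kb and Gabrg3 the longest at 671 kb, against a median of 17.1 kb over 21900 protein-coding genes, of which 7.37% are at least as long as Gabra2. For this reason the members' counts are set beside all protein-coding genes and beside the 1613 that are at least as long as Gabra2, and the counts of other gene lists beside all protein-coding genes. The extended windows of the members covered 3.01 Mb in all. Those of Gabrg3 and Gabra5 overlap, since only 20.5 kb separates these genes on chromosome 7, so 1 summit belongs to both and the 9 summits make 10 pairs of a summit and a gene.

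The sequence around the transcription starts of the members was compared with the lists first. RefSeq windows of build GRCm38.p6, from 250 bases before a start to 50 after it, were found for 7 of 7 members, 11 windows in all. Of these, 0 were overlapped by a Dlx2 region in any list. Over the 21263 such windows of protein-coding genes the share overlapped was 3.52% for the E16 basal ganglia list, 1.21% for the E16 cortex, 0.301% for the bulb at E16, 0.24% for the bulb at P3 and 0.974% for the P3 cortex, and 0 of 11 is near these shares. The 250 bases upstream are shown for 3 members: Gabrb2, whose start is the closest to a Dlx2 summit, Gabrg3, which holds the summit nearest to a start inside a gene body, and Gabra3, which had no summit in its window in any list. They are written 5′ to 3′ on the strand of the gene, with capitals for GC boxes (GGGCGG) and for the core of TALE homeodomain proteins (TGACAG), on either strand.
Gabrb2, plus strand, chr11:42420190-42420439: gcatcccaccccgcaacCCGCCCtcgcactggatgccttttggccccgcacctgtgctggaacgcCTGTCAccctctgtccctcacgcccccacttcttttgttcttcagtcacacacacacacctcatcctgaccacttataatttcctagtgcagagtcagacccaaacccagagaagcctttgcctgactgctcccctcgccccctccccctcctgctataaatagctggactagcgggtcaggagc
Gabrg3, minus strand, chr7:57387216-57387465: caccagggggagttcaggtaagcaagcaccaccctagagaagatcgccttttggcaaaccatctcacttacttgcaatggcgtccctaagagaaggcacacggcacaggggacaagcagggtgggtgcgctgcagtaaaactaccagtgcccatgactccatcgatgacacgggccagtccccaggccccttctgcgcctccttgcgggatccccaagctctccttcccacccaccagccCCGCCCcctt
Gabra3, minus strand, chrX:72656920-72657169: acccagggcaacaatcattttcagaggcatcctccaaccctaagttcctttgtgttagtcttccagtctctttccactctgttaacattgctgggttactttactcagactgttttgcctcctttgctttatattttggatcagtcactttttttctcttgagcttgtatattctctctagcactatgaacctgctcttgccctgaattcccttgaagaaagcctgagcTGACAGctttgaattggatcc
The homeodomain cores TAATTA and TAATTG, searched on both strands with overlapping matches allowed, were in 0 of the 11 member windows, against 4.53% and 6.83% of all windows. GGGCGG was in 4 of 11, from Gabra2, Gabrb2, Gabrg3 and Gphn, against 46.2% of all. TGACAG was in 3 of 11, from Gabra3 and Gabrb2, against 18.7%, and CAGCTG, an E-box, in 0 against 15.6%. The median GC content was 56.7% in member windows and 56.3% in all. Windows of 1 gene can share bases, as those of Gabra3 do, and a match or its absence describes only these letters.

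The alpha subunit genes showed Dlx2 regions in the E16 basal ganglia alone. Gabra5, the alpha subunit of many extrasynaptic receptors, held the strongest region of all members. That region spans chr7:57448227-57448854 within the gene body, 142 kb from the 5′ end of the annotated body and 61.5 kb from the start of the promoter window. Its fold enrichment, the ratio that the authors' peak caller gives for the summit, was 7.89, and the −log10 of its q-value was 25.9. It ranked 1927th of 14795 regions by −log10 q, and 85.7% of the list had a lower fold enrichment. Another summit in the extended window of Gabra5 lay 41.5 kb past its 3′ end and sits inside Gabrg3.

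Gabra2, an alpha subunit found at many forebrain synapses, had 1 region in the E16 basal ganglia list, at chr5:71011251-71011550, in the gene body 84.4 kb from the 5′ end. With a fold enrichment of 3.52 and a −log10 q of 3.79 it ranked 13124th, so 88.7% of the list was stronger by −log10 q. Gabra3, an X-linked alpha subunit gene on X:72432676-72656919, had 0 summits in all 5 lists. Its nearest summits lay 0.635 Mb away in the E16 basal ganglia list and 1.21 Mb in that of the E16 cortex. In the bulb they lay 3.06 Mb away at E16 and 3.02 Mb at P3, and in the P3 cortex 20.1 Mb. The X chromosome held from 0.545% of the summits of the P3 bulb list to 1.2% of those of the E16 basal ganglia list. Of 966 protein-coding genes on X, 14.8% had a summit within 50 kb in the basal ganglia list, against 42.4% of all protein-coding genes. The shares on X and over all were 9.52% and 28.7% in the E16 cortex and 1.86% and 12.4% in the P3 cortex. For the bulb they were 1.14% and 6.62% at E16, and 0.207% and 3.98% at P3.

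Among the beta subunits, Gabrb2 had the most regions of all members, with 3 summits in the E16 basal ganglia and 1 in the P3 cortex, and the only one with summits in more than 1 list. Its body spans chr11:42419515-42632591. The first basal ganglia region, chr11:42417848-42418197, lay 1.53 kb upstream of the gene body and 2.45 kb upstream of the start whose promoter is printed above, with a fold enrichment of 4.99 and a −log10 q of 11.9. Another locus, Gm34591, is annotated within 10 kb of the same summit, and the data do not assign the region to either gene. The second, 81.9 kb into the gene, had a fold enrichment of 4.88 and a −log10 q of 8.6. The third, 21.9 kb past the 3′ end, had 6.34 and 15.4 and ranked 3683rd of 14795. All 3 were above the median fold enrichment of their list, 4.55.

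The P3 cortex region of Gabrb2 was a different one. It covered chr11:42609252-42609746, 190 kb into the gene, with a fold enrichment of 3.19 and a −log10 q of 5.27 (1666th of 2139), and overlapped 0 regions of any other list. Gabrb1, the other beta subunit, had 1 summit, also in the P3 cortex. This region, chr5:71976637-71977013, lay 319 kb into the gene, with a fold enrichment of 3.83 and a −log10 q of 5.38 (1567th of 2139).

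The gamma subunit gene Gabrg3 had the longest body and 1 summit. The region, chr7:57365972-57366328 in the E16 basal ganglia list, lay inside the gene 21.1 kb from its 5′ end, with a fold enrichment of 3.71 and a −log10 q of 4.41 (12199th of 14795). Its extended window was 771 kb long. Gphn also had 1 summit, in the P3 cortex, at chr12:78642948-78643261 and 426 kb into a body of 467 kb. Its fold enrichment of 3.79 and −log10 q of 4.11 placed it 1883rd of 2139.

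**Figure D1:**
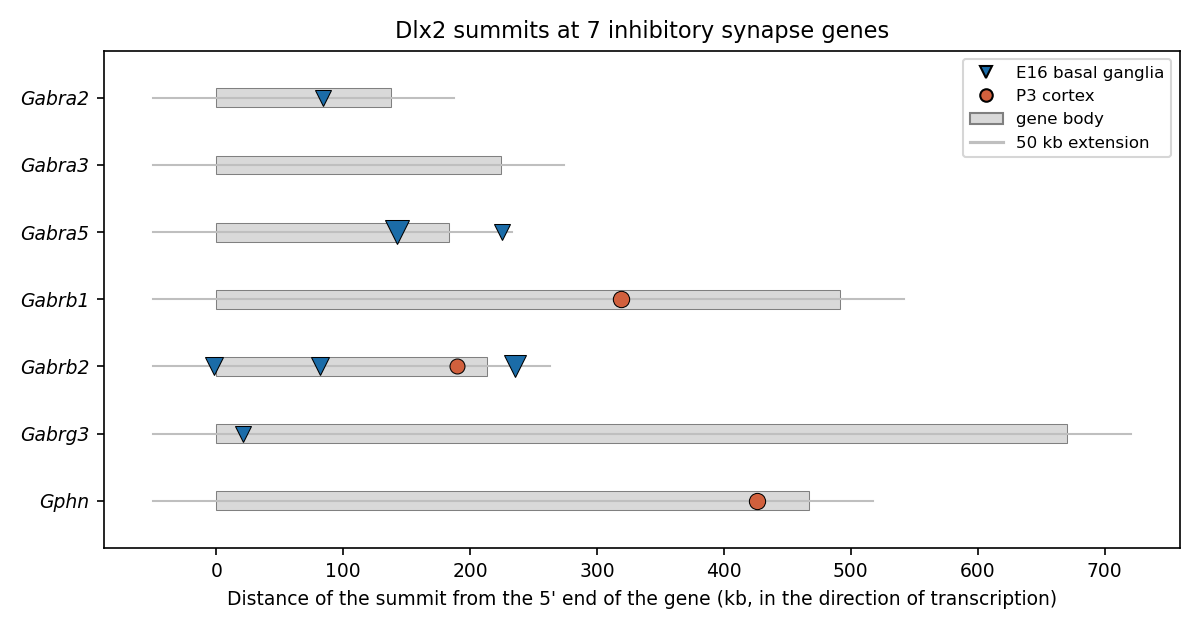
Positions of Dlx2 summits along the 7 genes, in kb from the 5′ end in the direction of transcription; grey bars are gene bodies, lines the 50 kb extensions, triangles E16 basal ganglia summits and circles P3 cortex summits, with larger symbols for higher fold enrichment. The summit 21.1 kb into Gabrg3 appears also past the 3′ end of Gabra5, and Gabra3 has none.

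Put together by list, the E16 basal ganglia list had a summit at 4 of the 7 members, against 42.4% of all protein-coding genes and 72.5% of those at least as long as Gabra2. The member genes had a median of 1 summit, all protein-coding genes a median of 0 and the long genes a median of 2. In the P3 cortex 3 of 7 members had a summit, against 12.4% of all and 32.7% of long genes. The count of 0 of 7 in the E16 cortex stands beside 28.7% and 28.0%, that of the bulb at E16 beside 6.62% and 26.7%, and that of the bulb at P3 beside 3.98% and 14.2%. With 7 members each gene makes 14.3%, so the basal ganglia share of 57.1% lies between its 2 backgrounds and the P3 cortex share of 42.9% within 1 gene of that of the long genes. Within the gene bodies alone the same 4 and 3 members had a summit. The shares of all and of long genes were then 17.9% and 65.3% for the E16 basal ganglia and 3.77% and 25.2% for the P3 cortex. For the lists without a member they were 11.2% and 21.1% (E16 cortex), 2.68% and 22.4% (E16 bulb) and 1.42% and 11.9% (P3 bulb).

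**Figure D2:**
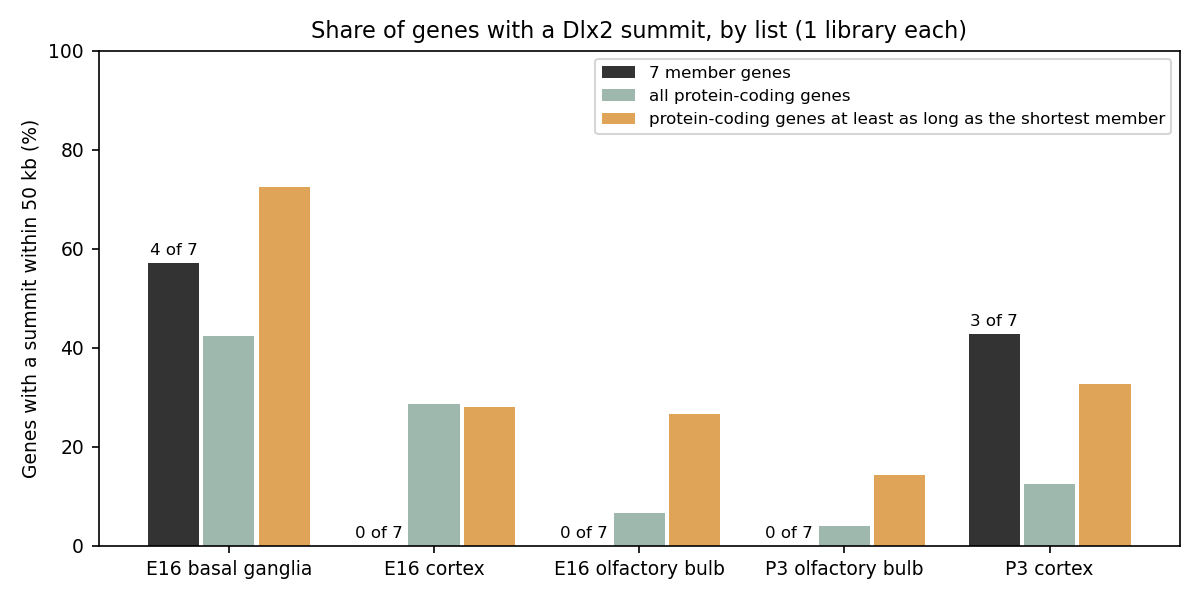
Percentage of genes with at least 1 Dlx2 summit within 50 kb in each list (1 library each, no error bars): the 7 members (dark), all 21900 protein-coding genes (green) and the 1613 at least as long as Gabra2 (orange). Members with a summit are 4 of 7 in the E16 basal ganglia, 3 of 7 in the P3 cortex and 0 of 7 in the other lists.

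Measured per length of window, members carried 1.99 summits per Mb in the E16 basal ganglia list (exact Poisson 95% interval 0.732 to 4.34), where the windows of all protein-coding genes carried 6.98 and those of the long genes 7.14. In the E16 cortex, 0 summits in 3.01 Mb allows up to 0.997 per Mb, taking 3 counts as the limit of a count of 0 (exact upper bound 1.23), and the corresponding densities were 3.64 and 2.44. The P3 cortex gave 0.997 per Mb (0.206 to 2.91), beside 0.925 and 1.02. For the bulb lists the limit of 0.997 per Mb is above the densities of all and of long genes, 0.642 and 0.874 at E16 and 0.308 and 0.383 at P3, so a count of 0 there is not informative at these list lengths. These intervals and limits cover counting error only, and the members were compared with the background without a test.

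Shares of the whole list were compared between tissues and ages without a test, since each has 1 library. Of the E16 basal ganglia list, 0.0406% were member summits (exact Clopper-Pearson 95% interval 0.0149 to 0.0882), and the E16 cortex count of 0 in 6333 regions allows up to 0.0474% by the same limit of 3 counts (exact upper bound 0.0582%), so a difference between these tissues was not detectable. In the P3 cortex list they made up 0.14% (0.0289 to 0.409), and the P3 bulb count of 0 in 734 allows up to 0.409% (0.501%). The E16 bulb count of 0 in 1666 allows up to 0.18% (0.221%), so no difference from the bulb lists was detectable either. Between the ages of the cortex, the P3 share of 0.14% lies above the E16 limit of 0.0474%, while its lower bound of 0.0289% lies under that limit. These 2 cortex lists also differ in the pattern of their peak names, so the age and this pattern cannot be told apart. Peak names follow 1 pattern in the basal ganglia and cortex lists of E16 and their own in the P3 bulb list. The E16 bulb and P3 cortex lists follow another, except that a mark for removed duplicates is present only in the E16 bulb names. The first pattern holds the words Dlx2-pos, whose meaning is not given. Within the pattern of the E16 basal ganglia and cortex the counts were 6 and 0. Between the E16 bulb and P3 cortex, where the mark also differs, they were 0 and 3. Removed duplicate reads are marked in the names of 0 of the 2139 P3 cortex regions and of every region of the other lists, and the part of this in the 3 P3 cortex regions was not tested.

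No region was shared. Each of the 9 member regions overlapped 0 regions of the other lists, also at Gabrb2, where both lists had summits. How many regions of the whole lists overlap another list was not counted, so this does not set the members apart. The regions were narrow, from 300 to 628 bp, and 7 of the 9 summits lay inside a member body. By strength, 4 of 9 were above the median fold enrichment of their own list, all in the E16 basal ganglia, and the 3 P3 cortex regions were all below their list's median of 4.42. Exon positions were not used here, so whether a summit inside a gene is exonic or intronic is not given.

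**Figure D3:**
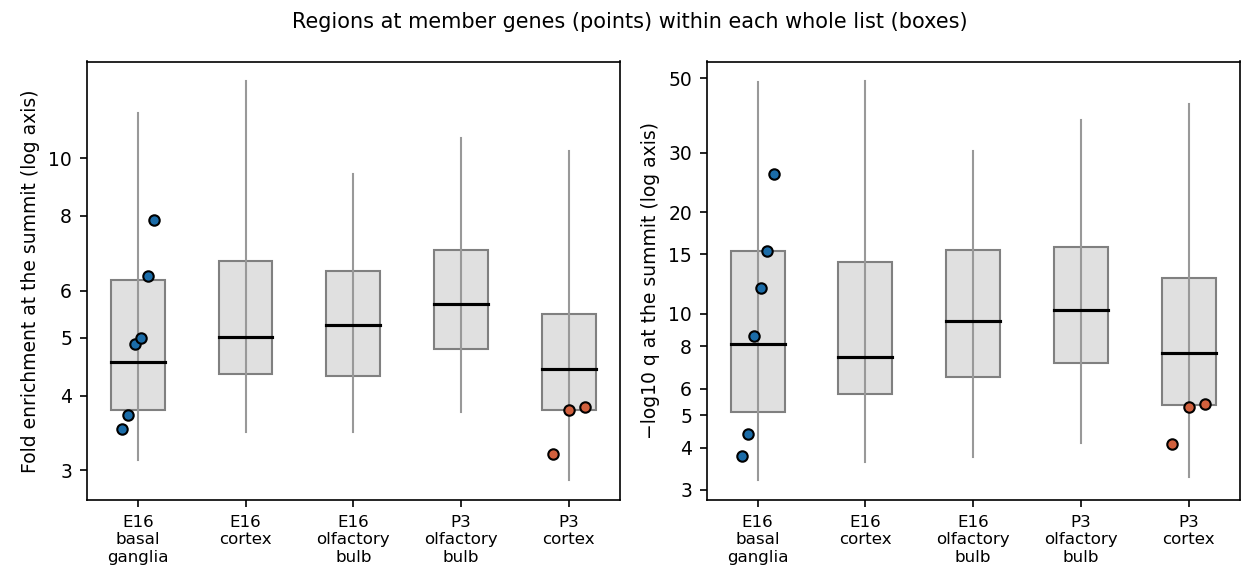
Fold enrichment (left) and −log10 q (right) of the member regions, as points on log axes, within the 5 lists; boxes span the 25th to 75th percentile of all regions of a list, the black bar is the median and the line runs from the 5th to the 95th percentile. Of the 6 E16 basal ganglia points 4 lie above the median fold enrichment of 4.55, and all 3 P3 cortex points lie below 4.42.

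Distances to the nearest summit were taken for all 7 members, with 0 for a member that holds a summit in its body. Distances of other genes were not set beside them. The median distance from a member body to the nearest summit was 1.98 Mb for the E16 cortex list, 1.51 and 3.02 Mb for the bulb lists of E16 and P3, and 0.486 Mb for the P3 cortex list. It was 0 for the E16 basal ganglia, where 4 of 7 members hold a summit in the body. Among members without a summit in a list, Gphn had the nearest ones, 215 kb away in the E16 cortex list and 303 kb away in 3 others. A region within Tmem229b, 303 kb past the 3′ end of Gphn, was called in the E16 basal ganglia, E16 bulb and P3 bulb lists with fold enrichments of 9.97, 5.53 and 5.17 and overlapping regions. For Gabrb2 a region within Atp10b, 604 kb past the 3′ end, was called in the same 3 lists, with 5.53 in the E16 bulb and 7.74 in the P3 bulb. Summits just beyond the 50 kb limit were few: the closest lay 61.3 kb from Gabrg3, and it is the strong region within Gabra5. The next were 118 kb from Gphn in the P3 cortex (fold enrichment 3.49) and 153 kb from Gabra2 in the E16 basal ganglia (5.56).

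**Figure D4:**
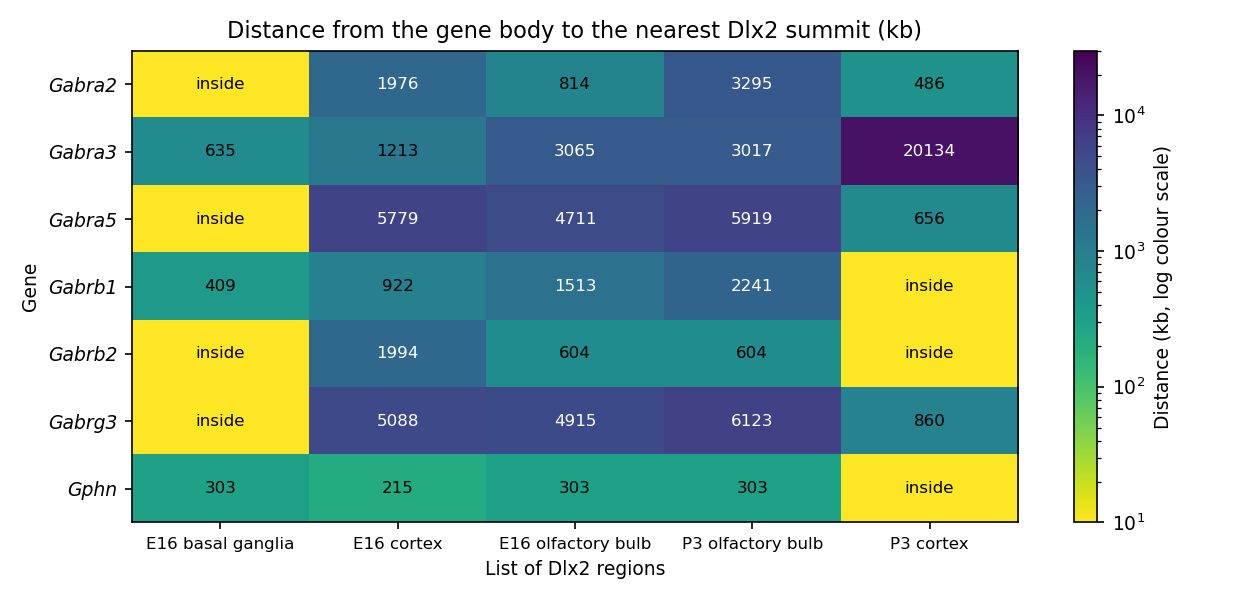
Distance in kb from each gene body (rows) to the nearest Dlx2 summit of each list (columns), on a log colour scale, with "inside" where a summit lies in the body. Of the 35 pairs 7 are inside, in the E16 basal ganglia and P3 cortex columns, and the other 28 have no summit within 50 kb.

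The rest of the GABA-A receptor family carried few regions. Of the 13 remaining subunit genes, 1 had a summit within 50 kb in the E16 basal ganglia list, where the background was 42.4%. The other lists had 0 of 13, beside 28.7% in the E16 cortex and 12.4% in the P3 cortex. For the bulb the background was 6.62% at E16 and 3.98% at P3, so 0 of 13 is near it there. The 13 genes are shorter than the members, with a median length of 38.2 kb. Counted with the 6 member subunits, 5 of 19 subunit genes had a summit in the E16 basal ganglia. The clusters on chromosomes 5 and X were also counted from the first to the last subunit gene, with 50 kb on each side. In the 1.5 Mb of Gabrg1, Gabra2, Gabra4 and Gabrb1 the E16 basal ganglia list had 2 summits and the P3 cortex list 1. In the 0.686 Mb of Gabre, Gabra3 and Gabrq both had 0, and the other 3 lists had 0 in both clusters. The cluster spans were chosen after the values were seen.

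Genes for proteins that work with the receptor at the synapse gave other counts. Of 20 scaffold and partner genes of the inhibitory postsynapse, 17 had a summit within 50 kb in the E16 basal ganglia (background 42.4%, median 3 summits) and 12 in the E16 cortex (28.7%, median 1.5). The bulb had 2 at E16 (6.62%) and 0 at P3 (3.98%), and the P3 cortex 2 (12.4%). The 20 genes had a median length of 43.8 kb, against 17.1 kb over all protein-coding genes, and no background of matched length was taken. Mdga1, a suppressor of neuroligin and neurexin binding, had summits within 50 kb in 4 of the 5 lists, but inside the gene only in the basal ganglia and cortex at E16. Its summits in the E16 bulb and P3 cortex lay 27.5 and 48.9 kb outside. The strongest region in the E16 basal ganglia lay 49.0 kb outside. Trak1, an adaptor for transport along microtubules, had 8 summits in the E16 basal ganglia, 12 in the E16 cortex and 1 in the P3 cortex. Kif21a, a kinesin gene, had 9, 4 and 1 in the E16 basal ganglia, E16 cortex and E16 bulb, the bulb summit 5.93 kb outside the gene. At Nlgn2, which encodes the neuroligin of inhibitory synapses, the strongest E16 basal ganglia region had a fold enrichment of 16.6 inside the gene and the strongest E16 cortex region 11.9. A window of 50 kb around a short gene also holds its neighbours. Within the gene bodies alone 14 of the 20 genes had a summit in the E16 basal ganglia and 8 in the E16 cortex, against 17.9% and 11.2% of all protein-coding genes. The bulb then had 0 at E16 (2.68%) and 0 at P3 (1.42%), and the P3 cortex 1 (3.77%).

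Glycine receptor subunits, which gephyrin also anchors, had a summit at 3 of 5 genes in the E16 basal ganglia, 1 of 5 in the bulb at E16 and 1 of 5 in the P3 cortex. The shares of all protein-coding genes were 42.4%, 6.62% and 12.4%. The E16 cortex and P3 bulb had 0 of 5 (28.7% and 3.98%). The 5 genes had a median length of 94.0 kb, against 17.1 kb over all protein-coding genes, and no background of matched length was taken. Glra3 had a region inside the gene in the E16 basal ganglia (fold enrichment 4.88) and in the E16 bulb (7.16). Glrb, the beta subunit that binds gephyrin, had 1 in the E16 basal ganglia (6.02). The summits at Glra1 and Glra4 lay 44.8 and 45.4 kb outside the genes.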

How the data were processed

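Per the labels, 10 libraries were made, of which 5 are Dlx2 immunoprecipitations and 5 are inputs, and the inputs were not analysed here. Per the submitters' processing notes, Trimmomatic, Bowtie2, SAMtools and MACS2 were used, with no versions stated, on build mm10. The authors deposited 1 narrowPeak list per immunoprecipitated library. Its fold enrichment is a linear ratio, and the deposited −log10 p and −log10 q belong to the summit. The deposited score column restates −log10 q and was not used. The calling threshold, the control and the depth of reads were not stated in these sources, so values serve only to rank regions within a list.

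Summits (start plus offset, counted from 1) were matched to 49997 RefSeq genes of GRCm38.p6, the same build, with Python 3.11.15, pandas 2.3.3 and scipy 1.17.1, and counting was tested on simulated positions. Overlap meant at least 1 bp. The members and lists were chosen with earlier results of these data known. Named were all members and, of each other list, up to 4 genes present in most lists, ties going to the highest −log10 q. Genes of similar pattern were to be named only for a member with summits in 3 or more lists, and there were 0 such members. Sequence around summits was not used here, so the planned motif share at summits and the printing of region sequences were not carried out. A few genes of the lists are counted but not reported singly here.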

Additional observations from a re-analysis of the deposited data

How the results depend on the processing

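With the extension at 10 kb, with the gene body alone and with regions of at most 1 kb, every count of summits and of members with a summit stayed within 1.5 times its value in all 5 lists, as it did with an extension of 100 kb, chosen after seeing the data. With −log10 q of at least 5, members with a summit fell to 2 of 7 in the E16 basal ganglia, Gabra5 and Gabrb2, and to 2 of 7 in the P3 cortex, where the only summit of Gphn was lost. With the 734 strongest regions of each list, the length of the shortest list, summits and members with a summit were 0 in every list, the E16 basal ganglia and P3 cortex included, since no member region ranks that high. Regions shared by 2 or more lists were 0 under each of the 5 alternatives for overlap, extension and threshold. The main count was already 0, so a stricter overlap, the 10 kb extension and the −log10 q limit could not change it. Only the rule on the distance between summits and the 100 kb extension could have raised it. The share of summits with TAATTA and its alternatives were not run. No paired analysis was possible because each group has 1 library. Since the depth of the libraries is unknown, a gene without a region may still be bound below the calling threshold.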

Other observations

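Genes of the slower GABA-B response and of chloride transport also carried Dlx2 regions. Of 7 such genes, 6 had a summit within 50 kb in the E16 basal ganglia list (all protein-coding genes 42.4%), 3 in the E16 cortex (28.7%) and 2 in the P3 cortex (12.4%). The bulb had 1 at E16 (6.62%) and 1 at P3 (3.98%). The 7 genes had a median length of 68.3 kb, against 17.1 kb over all protein-coding genes. No background of matched length was taken, so these counts do not show an excess. Kctd16, an auxiliary subunit of GABA-B receptors, had a region inside the gene in 4 of the 5 lists, with fold enrichments of 7.93 in the E16 basal ganglia, 5.72 and 7.98 in the bulb at E16 and P3, and 4.36 in the P3 cortex. Gabbr2, a GABA-B receptor subunit, had one inside the gene in the E16 basal ganglia (8.4), E16 cortex (7.81) and P3 cortex (3.71). Gabbr1 had 5 summits in the E16 basal ganglia and 5 in the E16 cortex. Slc12a5, the chloride extruder of mature neurons, had 6 in the E16 basal ganglia, the strongest with a −log10 q of 52.3, and 2 in the E16 cortex.

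Among 16 genes of oligodendrocytes, astrocytes, microglia, vessels, liver and muscle, 6 had a summit within 50 kb in the E16 basal ganglia, 3 in the E16 cortex and 2 in the P3 cortex, and in the bulb 1 at E16 and 0 at P3. The shares of all protein-coding genes were 42.4%, 28.7%, 12.4%, 6.62% and 3.98% in that order. Within gene bodies alone the basal ganglia had 3, against 17.9% of all genes, and the other lists 0. The strongest was 14.8 kb outside Pecam1, an endothelial adhesion gene, with a fold enrichment of 20.5 in the E16 basal ganglia, 4.53 in the E16 bulb and 5.0 in the P3 cortex. At Myh7, a myosin gene, the strongest regions lay 43.7, 44.7 and 20.6 kb outside the gene in the E16 basal ganglia, E16 cortex and P3 cortex, at Sox10 2.62 and 2.69 kb outside in the basal ganglia and cortex at E16, and at Olig1 42.9 kb outside in the E16 basal ganglia, where the summit lies inside Olig2, another gene of the list.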
